A study of Mus musculus with 12 samples.

Results

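Left ventricles of treated HFpEF mice were compared with those of healthy control mice, to describe what still differed from control, or had moved past it, after an HDAC6 inhibitor. The comparison was fixed by the sample labels alone and took 8 of the 12 RNA sequencing samples of the series, 4 HFpEF-TYA-018 and 4 Control-Veh, across all 14333 genes tested of 29564 in the tables. Control-Veh mice were wild-type C57BL6 (C57BL/6J in the study), non-failing, and received the oral vehicle (libraries C1 to C4). HFpEF-TYA-018 mice were wild-type C57BL6 fed fat-rich chow and given L-NAME, an inhibitor of nitric oxide synthesis, which together model heart failure with preserved ejection fraction (HFpEF), and received 15 mg/kg TYA-018 by mouth (T1 to T4). The remaining 4 mice, HFpEF-Veh, had the same model and received vehicle (V1 to V4), and their values stand beside the others to separate what the model had moved from what had not. All groups were male according to the study, and the labels give no age. The title of the series speaks of a single dose, and by the study's account the hearts were collected hours later, whereas the treatment protocol names daily dosing over weeks, so the length of treatment is uncertain. HFpEF-TYA-018 and Control-Veh differ in diet, L-NAME and inhibitor at once, and these cannot be told apart within the comparison. Animal numbers ran in blocks by group, so that cage, date or order of handling cannot be told apart from group.

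The left ventricle turns mostly fatty acids into ATP. Long-chain acyl groups enter mitochondria through the carnitine shuttle, and acyl-CoA dehydrogenases, hydratases, hydroxyacyl-CoA dehydrogenases and thiolases then shorten them in the cycle of beta-oxidation, passing electrons to the respiratory chain through electron transfer flavoprotein. The nuclear receptor PPAR alpha switches on many of these genes when fatty acids are plentiful. HDAC6 is a mainly cytoplasmic deacetylase whose known substrates include tubulin and the chaperone HSP90, so its inhibition is aimed at the protein and not at its transcript. In heart failure the ventricle is known to shift between fuels, to deposit extracellular matrix and to switch on stress genes such as those of natriuretic peptides.

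The libraries held 61.2 to 83.9 M (1e06) estimated counts, of which mitochondrially encoded genes took 38.8% in Control-Veh and 38.9% in HFpEF-TYA-018 (exact two-sided permutation p 0.971). Globin transcripts took 0.204% ± 0.0374 of counts in Control-Veh and 0.296% ± 0.0424 in HFpEF-TYA-018 (mean ± SD of 4 mice, exact permutation p 0.0286, the smallest that 4 against 4 can give, 0.114 adjusted over 4 library measures). T1 had the largest total, 83.9 M, and T1 and T2 had the shortest effective transcript lengths (median log2 length relative to all libraries -0.156 and -0.077) and lay lowest on the second principal component. Cardiomyocyte markers summed to between 29405 and 35778 CPM (counts per 1000000, of the library total for these sums and after TMM scaling for single genes) in Control-Veh and between 27848 and 34475 CPM in HFpEF-TYA-018, which fits the labelled tissue. Hdac6, the gene of the drug's target, was at 14.98 ± 0.595 CPM in Control-Veh and 13.97 ± 1.51 CPM in HFpEF-TYA-018 (mean ± SD, 4 mice each, log2 difference -0.10, SE 0.08, edgeR adjusted p 0.538). In HFpEF-Veh it was at 11.64 ± 0.975 CPM and lower than control (-0.36, edgeR adjusted p 0.0117). HFpEF-TYA-018 was 0.26 above HFpEF-Veh (edgeR adjusted p 0.0486). The Hdac6 transcript checks neither dose nor inhibition. In whole tissue, fewer cells of a type and less RNA per cell cannot be told apart.

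Of the 14333 genes, 840 (5.86%) were called in HFpEF-TYA-018 against Control-Veh by edgeR's quasi-likelihood test at an adjusted p under 0.05, 447 higher (3.12%) and 393 lower (2.74%). Most differences were small, with a median size of 0.41 on the log2 scale among called genes, and 82 genes differed at least 2-fold. By the same test, 3219 of the 14333 genes had an unadjusted p under 0.05. Between the same groups, the 4 and 4 libraries did not overlap for 14.8% of tested genes, 7.76% higher and 7.05% lower, and they did not overlap for 810 of the 840 called genes. The genes were then sorted by their calls in the other comparisons of the same fit, each of which shares libraries with this one, so that the resulting counts describe the calls and test nothing. HFpEF-Veh against Control-Veh called 21.2% of genes (10.9% higher, 10.3% lower), and HFpEF-TYA-018 against HFpEF-Veh called 19.3% (8.93% higher, 10.4% lower). There were 413 genes that stayed different, meaning called on the same side of control in both HFpEF groups, 205 higher and 208 lower. A second set of 273 genes lay beyond control, meaning called on the same side of both Control-Veh and HFpEF-Veh, 160 higher and 113 lower, and 11 genes met both descriptions. The other 165 were called against control only.

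Sizes differed between the sets in part by construction. Genes staying higher had a median log2 difference from control of 0.47 in HFpEF-TYA-018 and 0.52 in HFpEF-Veh, and those staying lower -0.50 and -0.48. Genes beyond control had medians of 0.34 (higher) and -0.47 (lower) in HFpEF-TYA-018, against 0.01 and 0.01 in HFpEF-Veh. Seen from the model, 1561 genes were called higher for HFpEF-Veh against Control-Veh, of which 205 were also called higher in HFpEF-TYA-018, 14 were called lower and 1342 were not called. Over those 1561 the median log2 difference from control was 0.48 for HFpEF-Veh and 0.13 for HFpEF-TYA-018. Of 1472 genes called lower in HFpEF-Veh, 208 stayed lower, 5 were called higher and 1259 were not called, with medians of -0.43 and -0.19. A gene that is not called here is not shown to equal control. The count of calls was sensitive to single libraries. It was 815, 550, 503 and 329 without C1 to C4 in turn and 416, 317, 451 and 534 without T1 to T4, and 241 of the 840 genes were called in all 8 of these fits. With the deposited effective lengths as an offset 203 genes were called, 166 of them among the 840. In that fit 828 of the 840 kept their sign. On log2(TPM + 1) values, limma called 9 genes (4 higher, 5 lower), and 101 after the study's own filter.

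**Figure D1:**
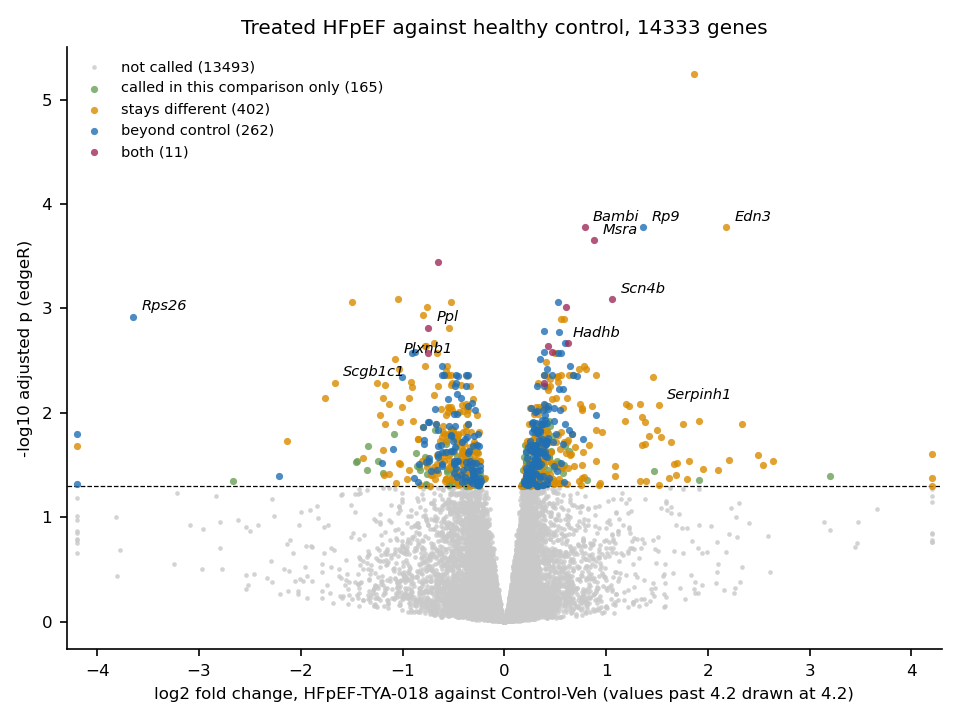
Each point is 1 of 14333 genes, with the fitted log2 fold change of HFpEF-TYA-018 against Control-Veh on the x axis (values past 4.2 are drawn at 4.2) and -log10 of the edgeR adjusted p on the y axis, where the dashed line marks an adjusted p of 0.05. Colours mark the 840 called genes as staying different, beyond control, both (11 genes) or called in this comparison only (165 genes), and Rps26 lies far to the left, at -3.65.

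Many genes of fatty acid oxidation stood above control. Their list was chosen with earlier results of these data known, so its share of calls is a description only. Of 32 genes tested in the list of fatty acid uptake and oxidation, 16 were called higher and 1, the lipoprotein lipase gene Lpl, was lower, against 5.86% of all genes called. The list's median log2 difference from control was 0.21 in HFpEF-TYA-018 and 0.02 in HFpEF-Veh. In HFpEF-Veh 1 member was called higher and 5 lower (10.9% and 10.3% of all genes were). In HFpEF-TYA-018 against HFpEF-Veh the median was 0.31, with 17 members called higher and 3 lower (8.93% and 10.4% of all genes were). Of the 16 genes above control, 13 were beyond it by both comparisons. The other 3, Etfdh, Fabp3 and Acadl, were called against control only. Each of the 16 had no overlap between the 4 and 4 libraries. The same held for 810 of all 840 called genes and, on the high side, for 7.76% of all tested genes.

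The starts of Hadha and Hadhb, which encode both subunits of the mitochondrial trifunctional protein, face away from each other on chromosome 5, 273 bases apart in RefSeq on GRCm38.p6, and the limits of the genes in GENCODE leave 85 bases between them. Those bases (chr5:30155163-30155247, plus strand, 5′ to 3′) are shown because both genes were higher and lie on either side of them. Promoter windows ran from 250 bases before to 50 after each RefSeq start, and 14 of the 16 genes had one (all but Decr1 and Acaa2). They were searched on both strands for AGGTCA, the 6-base core read by PPAR alpha and many other nuclear receptors, for AGGTCANAGGTCA, which repeats those letters after 1 base, and for TCAAGGTCA, which contains the first. AGGTCA was found in 3 of the 14 windows (Acadm, Acadvl and Echs1), in 16.3% of all 32851 mouse windows and in 12.9% of 13317 windows of tested genes. AGGTCANAGGTCA was in 0 of the 14 (0.0396% of all windows), and TCAAGGTCA also in 0 (0.423% of all windows). A match describes letters only, and no match says only that the letters are not in this window. For the 3 matches, 30 bases are shown in gene direction with AGGTCA or its reverse complement in capitals, from chr3:153944864-153944893 (Acadm), chr11:70015498-70015527 (Acadvl) and chr7:140116487-140116516 (Echs1), all on the minus strand.
Between Hadha and Hadhb: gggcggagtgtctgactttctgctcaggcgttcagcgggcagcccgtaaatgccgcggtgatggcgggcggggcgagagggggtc
Acadm: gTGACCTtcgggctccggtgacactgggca
Acadvl: atggatcaccctAGGTCAggtagaatacag
Echs1: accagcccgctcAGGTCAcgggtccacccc

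The carnitine shuttle was higher at its inner membrane steps. Cpt2 (chromosome 4, 107903981 to 107923610 on GRCm38, protein-coding), the inner carnitine palmitoyltransferase, was at 133, 172, 162 and 161 CPM in C1 to C4, 167, 167, 168 and 181 CPM in V1 to V4 and 241, 234, 225 and 227 CPM in T1 to T4 (log2 difference 0.56, SE 0.07, edgeR adjusted p 0.00270). All T libraries lay above all C libraries, and HFpEF-Veh against Control-Veh gave 0.12, adjusted p 0.258. Slc25a20 (chromosome 9, 108662088 to 108684641), the carnitine-acylcarnitine carrier of that membrane, was at 91.5, 106, 115 and 107 CPM in C1 to C4, 112, 115, 124 and 124 CPM in V1 to V4 and 147, 144, 141 and 149 CPM in T1 to T4 (log2 difference 0.47, SE 0.07, edgeR adjusted p 0.00439), again without overlap between C and T. Upstream, Fabp3, the fatty acid binding protein of heart muscle, had a log2 difference of 0.44, adjusted p 0.0266, and Lpl, which releases fatty acids from circulating lipoproteins, was lower in HFpEF-TYA-018 and in HFpEF-Veh (log2 differences -0.36 and -0.36, adjusted p 0.0393 and 0.0146). Of all stretches of 31 bases in Fabp3 transcripts, 50.1% also occur in another gene (shared 31-base words), so its estimate is uncertain. The outer carnitine palmitoyltransferases Cpt1a and Cpt1b, the first gate of the shuttle, were not called (-0.15 and 0.15, adjusted p 0.221 and 0.346), nor was the fatty acid carrier gene Cd36 (-0.26, adjusted p 0.448). With the 8 libraries of the comparison left out 1 at a time, Cpt2 and Slc25a20 kept their calls in every fit (edgeR adjusted p at most 0.0170). Leaving out 1 library ended the edgeR call of Fabp3 (C4, T1 or T2, highest adjusted p 0.0714) and Lpl (any but C1 and T4, highest adjusted p 0.0948).

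The first step inside mitochondria, dehydrogenation of acyl-CoA, was higher for the short, medium, long and very long-chain enzymes. Acads (chromosome 5, 115110299 to 115119346), for short chains, was at 109.6, 124, 137 and 125 CPM in C1 to C4, 124, 125, 133 and 131 CPM in V1 to V4 and 186, 187, 168 and 172 CPM in T1 to T4 (log2 difference 0.52, SE 0.07, edgeR adjusted p 0.00270). Its T libraries lay above all C and V libraries. Acadvl, for very long chains, was at 520.2, 679, 669 and 695 CPM in C1 to C4 and 1049, 912, 853 and 829 CPM in T1 to T4 (log2 difference 0.51, SE 0.10, edgeR adjusted p 0.0160), with C1 well under the other controls. Acadm, for medium chains, and Acadl, for long chains, had log2 differences of 0.30 and 0.33 (adjusted p 0.0378 and 0.0488). Electrons of these enzymes pass through electron transfer flavoprotein, whose alpha subunit Etfa and partner dehydrogenase Etfdh differed by 0.33 and 0.46 (adjusted p 0.0287 and 0.0230). Acadvl shared 33.2% and Etfa 10.9% of its 31-base words with other genes. Acads and Acadvl stayed called whichever of the 8 libraries was left out (edgeR adjusted p at most 0.0467). The edgeR call failed without 1 library for Acadm (any but C3, highest adjusted p 0.0952), Acadl (any but C1, highest adjusted p 0.116), Etfa (C2, T1, T2 or T3, highest adjusted p 0.0740) and Etfdh (C2, T1 or T2, highest adjusted p 0.0593).

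Hadhb (chromosome 5, 30155248 to 30184593) was the member with the smallest p, at 724, 723, 804 and 769.7 CPM in C1 to C4, 767, 799, 935 and 819.9 CPM in V1 to V4 and 1233, 1130.2, 1095 and 1097 CPM in T1 to T4 (log2 difference 0.59, SE 0.07, edgeR adjusted p 0.00214). The neighbouring Hadha (chromosome 5, 30118304 to 30155162) was at 765, 862, 935 and 870.0 CPM in C1 to C4, 879, 835, 955 and 965 CPM in V1 to V4 and 1228, 1154, 1095 and 1144 CPM in T1 to T4 (log2 difference 0.43, SE 0.08, edgeR adjusted p 0.00928). Both were above every control library in all T libraries. Decr1, a dienoyl-CoA reductase needed for unsaturated chains, had the largest difference of the list, at 213, 312, 296 and 279 CPM in C1 to C4, 315, 339.6, 331 and 339 CPM in V1 to V4 and 502, 463, 413 and 423 CPM in T1 to T4 (log2 difference 0.71, SE 0.11, edgeR adjusted p 0.00448). Acaa2, the mitochondrial thiolase that ends each cycle, differed by 0.57 (adjusted p 0.00588) and Hadh, a hydroxyacyl-CoA dehydrogenase, by 0.33 (adjusted p 0.0156). Eci2, an isomerase for unsaturated chains, and Echs1, the short-chain enoyl-CoA hydratase, differed by 0.29 and 0.27 (adjusted p 0.0318 and 0.0418). Hadhb shared 23.7%, Eci2 17.3% and Echs1 10.2% of its 31-base words with other genes. In all 8 fits that each lacked 1 library, Hadhb, Hadha, Decr1, Acaa2 and Hadh remained called (edgeR adjusted p at most 0.0479). By edgeR, the call was lost with 1 library left out for Eci2 (any but C3 and T3, highest adjusted p 0.0775) and Echs1 (any of the 8, highest adjusted p 0.111).

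As a list, the number of members called higher was 13, 10, 14 and 11 without C1 to C4 in turn and 9, 9, 12 and 12 without T1 to T4. With effective lengths as offset, 6 members were called higher (Decr1, Hadha, Acaa2, Slc25a20, Acads and Hadh), and Lpl and the 16 genes above control all kept their direction. On log2(TPM + 1) values limma called 0 of the 17 and gave a list median of 0.43, where the median of all genes was 0.08. With only the 8 libraries compared, 11 were called. T1, the library with the shortest effective lengths, held the highest value of Hadhb, Decr1 and Cpt2 among T libraries. C1 was the lowest control for Acadvl and most other members. The members named beyond the 6 with the smallest p were chosen after their values were seen.

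**Figure D2:**
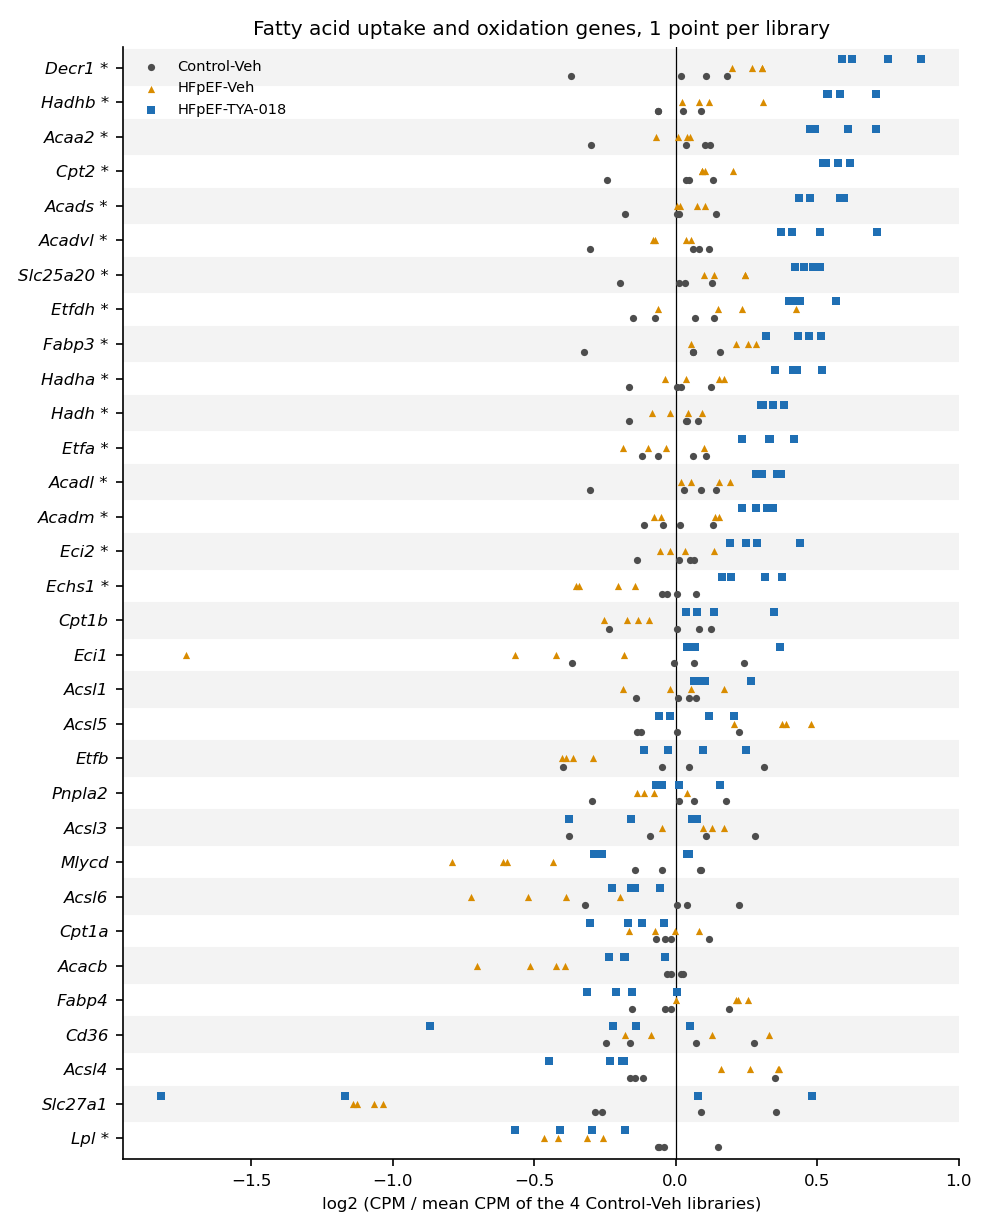
The x axis gives log2 of the CPM of a library over the mean CPM of the 4 Control-Veh libraries, with 1 point per library and 1 line per gene, for all 32 tested genes of fatty acid uptake and oxidation. Stars mark the 17 called genes, and in the 16 higher ones every HFpEF-TYA-018 square lies to the right of every Control-Veh circle.

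Of 26 tested targets of PPAR alpha, 6 were higher and 1 lower than in Control-Veh (26.9% called against 5.86% of all genes), with a median of 0.08 and differences that were positive for 15 and negative for 11. The number called higher was 4, 5, 2 and 2 without C1 to C4 in turn and 1, 2, 5 and 3 without T1 to T4, and 1 with effective lengths as offset, while the list's median ran from -0.07 to 0.25 over the fits without 1 library. Retsat, a retinol saturase, was higher by 0.33 (adjusted p 0.0234) and Ech1, a dienoyl-CoA isomerase, by 0.49 (adjusted p 0.0320), and both were beyond control. Pdk4, the kinase that shuts off pyruvate dehydrogenase, was the member called lower, at 588, 434, 448 and 438 CPM in C1 to C4, 360.3, 244, 345 and 305 CPM in V1 to V4 and 290.2, 160.4, 248 and 352 CPM in T1 to T4 (log2 difference -0.86, SE 0.21, edgeR adjusted p 0.0322), with C1 above the other controls. Single libraries, left out alone, ended the edgeR call of Retsat (C3 or T1, highest adjusted p 0.0624), Ech1 (C3, C4, T1, T2 or T4, highest adjusted p 0.0846) and Pdk4 (any but C2 and T4, highest adjusted p 0.0790).

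Breakdown of branched-chain amino acids was divided. Of 25 tested genes of ketone and branched-chain amino acid breakdown, 3 were higher and 3 lower in HFpEF-TYA-018 (24% called against 5.86% of all genes), with a median of 0.07, whereas 15 were lower and 1 higher in HFpEF-Veh (median -0.27, with 10.3% of all genes lower and 10.9% higher). Ppm1k, the phosphatase that activates the branched-chain ketoacid dehydrogenase, was at 39.8, 45.2, 38.9 and 43.01 CPM in C1 to C4, 23.6, 23.8, 26.4 and 23.8 CPM in V1 to V4 and 34.2, 32.8, 35.97 and 33.02 CPM in T1 to T4 (log2 difference -0.30, SE 0.06, edgeR adjusted p 0.0190). The T libraries lay between the V and the C libraries. Bckdhb, a subunit of that dehydrogenase, was at 32.5, 39.5, 37.1 and 40.3 CPM in C1 to C4, 21.01, 19.1, 24.6 and 21.7 CPM in V1 to V4 and 30.2, 30.4, 28.1 and 27.7 CPM in T1 to T4 (log2 difference -0.36, SE 0.08, edgeR adjusted p 0.0300), in the same order of groups. Acadsb, the dehydrogenase for short branched chains, also stayed lower (-0.31, adjusted p 0.0202), while Hibch of valine breakdown and Acat1 of ketone and isoleucine use were higher and beyond control (0.31 and 0.38, adjusted p 0.0227 and 0.00932). No single library of the 8 ended the call of Acat1 (edgeR adjusted p at most 0.0327 without it). Calls that edgeR no longer made without 1 library were those of Ppm1k (C4 or T2, highest adjusted p 0.0604), Bckdhb (any but C1, highest adjusted p 0.0849), Acadsb (T1, T2 or T3, highest adjusted p 0.0604) and Hibch (C4, T1 or T2, highest adjusted p 0.0639).

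Among glucose genes, calls lay on both sides of control. Of 32 tested genes of glucose uptake, glycolysis and glycogen, 5 were higher and 3 lower (25% called against 5.86% of all genes, median 0.06). Pfkl and Pfkp, liver and platelet forms of phosphofructokinase, stayed higher. Pfkl was at 65.9, 72.03, 77.1 and 73.6 CPM in C1 to C4, 100.4, 95.3, 111 and 98.9 CPM in V1 to V4 and 115, 111, 104 and 103 CPM in T1 to T4 (log2 difference 0.58, SE 0.07, edgeR adjusted p 0.00127), and Pfkp differed by 0.63 (adjusted p 0.0180). Of the bifunctional enzymes that set the activator fructose bisphosphate, Pfkfb2, the heart form, was higher and beyond control, at 29.7, 36.98, 36.9 and 37.99 CPM in C1 to C4, 35.02, 32.99, 36.01 and 42.4 CPM in V1 to V4 and 69.4, 69.6, 62.5 and 39.8 CPM in T1 to T4 (log2 difference 0.77, SE 0.16, edgeR adjusted p 0.0178). Pfkfb1 and Pfkfb3 were lower (-0.47 and -0.50, adjusted p 0.0188 and 0.0353). The brain glycogen phosphorylase gene Pygb was higher and beyond control (0.35, adjusted p 0.0181). Pfkfb2 shared 18.9% of its 31-base words with other genes. Leaving out any 1 of the 8 libraries left Pfkl called (edgeR adjusted p at most 0.00654). Without 1 library, edgeR did not call Pfkp (T2, adjusted p 0.0525), Pfkfb2 (T2, adjusted p 0.0547), Pfkfb1 (C4 or T2, highest adjusted p 0.0563) and Pfkfb3 (any but C3 and C4, highest adjusted p 0.0953). Leaving out 1 library ended the edgeR call of Pygb (C4 or T2, highest adjusted p 0.0576).

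The respiratory chain was called about as often as all genes. Of 77 tested nuclear subunits of oxidative phosphorylation, 4 were higher and 0 lower, which is 5.19% against 5.86% of all genes, and the median was 0.04. Against HFpEF-Veh the same list had 31 members called higher (8.93% of all genes were) and a median of 0.30, while in HFpEF-Veh against control 15 were called lower (10.3% of all genes were, median -0.27). Those above control were Sdhc and Sdhd of complex II, Ndufa9 of complex I and Uqcrfs1, the Rieske protein of complex III, all beyond control. Ndufa9 was at 112, 84.9, 97.3 and 83.1 CPM in C1 to C4, 78.6, 82.7, 95.5 and 77.6 CPM in V1 to V4 and 152, 155, 146 and 119 CPM in T1 to T4 (log2 difference 0.60, SE 0.11, edgeR adjusted p 0.0128). Sdhc was at 238, 264, 259 and 268 CPM in C1 to C4, 243, 255, 274 and 265 CPM in V1 to V4 and 364, 346, 313 and 327 CPM in T1 to T4 (log2 difference 0.39, SE 0.07, edgeR adjusted p 0.00827), and it remained called with effective lengths as offset (adjusted p 0.00665). Sdhd and Uqcrfs1 each differed by 0.27 (adjusted p 0.0431 and 0.0410). Of 13 mitochondrially encoded messenger RNAs 0 were called by edgeR (0 at an unadjusted p under 0.05), with a median of -0.06 and the smallest adjusted p 0.258, at mt-Nd1 (-0.19). Among 26 citric acid cycle and pyruvate genes the malic enzyme gene Me1 alone was called (0.49, adjusted p 0.00270), with 36.9% of its 31-base words shared. Yet 16 of the 26 had an unadjusted edgeR p under 0.05, against 3219 of all 14333 genes, and the median was 0.17. The calls of Ndufa9, Sdhc and Me1 did not rest on any 1 of the 8 libraries (edgeR adjusted p at most 0.0443 without it). The edgeR call failed without 1 library for Sdhd (any but C1, highest adjusted p 0.105) and Uqcrfs1 (any but C2 and T4, highest adjusted p 0.107).

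Among named genes that reached a mean of 5 CPM in either group, Edn3 stayed higher by the largest margin and Serpinh1 came next. Edn3 (chromosome 2, 174760619 to 174784042), an endothelin peptide, was at 2.31, 2.76, 2.49 and 1.84 CPM in C1 to C4, 11.5, 16.2, 18.1 and 17.7 CPM in V1 to V4 and 8.52, 9.84, 11.5 and 12.7 CPM in T1 to T4 (log2 difference 2.18, SE 0.18, edgeR adjusted p 0.000167), with every T library above every C library. It was also called lower than in HFpEF-Veh (-0.58, adjusted p 0.0296). Serpinh1 (chromosome 7, 99345376 to 99353239), the collagen chaperone HSP47, was at 25.3, 21.8, 18.3 and 15.4 CPM in C1 to C4, 54.1, 27.1, 34 and 60.9 CPM in V1 to V4 and 44.99, 72.6, 66.6 and 47.2 CPM in T1 to T4 (log2 difference 1.52, SE 0.26, edgeR adjusted p 0.00850). Cilp, a matrix protein of cartilage and scar tissue, was at 4.65, 2.37, 2.57 and 2.93 CPM in C1 to C4, 6.21, 9.96, 7.98 and 7.24 CPM in V1 to V4 and 5.94, 6.87, 9.00 and 6.79 CPM in T1 to T4 (log2 difference 1.19, SE 0.22, edgeR adjusted p 0.0119). Every HFpEF library lay above C1, the highest control. Hax1, which encodes a mitochondrial protein that protects from apoptosis, differed by 1.499 (adjusted p 0.0147), and 34.4% of its 31-base words are shared. Atp6v0e, a subunit of the proton pump of lysosomes, was at 5.57, 5.28, 6.04 and 6.04 CPM in C1 to C4, 16.2, 7.11, 5.42 and 5.66 CPM in V1 to V4 and 19.5, 18.8, 18 and 7.26 CPM in T1 to T4 (log2 difference 1.47, SE 0.36, edgeR adjusted p 0.0362). T4 lay far under the other T libraries, and V1 lay far above the other V libraries, near T1 to T3. For HFpEF-Veh against control Atp6v0e was not called (0.58, edgeR adjusted p 0.267). With the 8 libraries of the comparison left out 1 at a time, Edn3, Serpinh1, Cilp and Hax1 kept their calls in every fit (edgeR adjusted p at most 0.0441). By edgeR, the call was lost with 1 library left out for Atp6v0e (any but T4, highest adjusted p 0.0898).

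**Figure D3:**
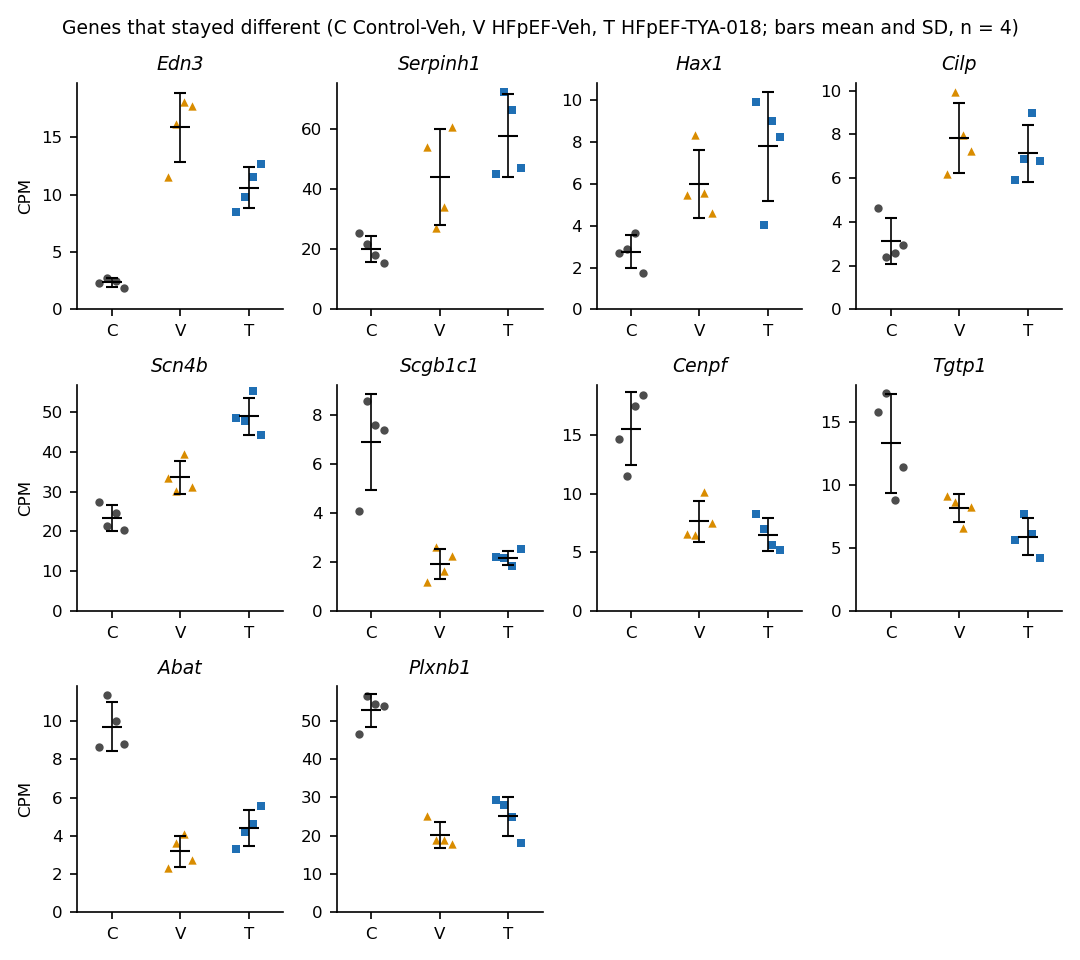
CPM after TMM scaling in each library (points) with the mean and SD of each group (bars, n = 4), for 10 genes called on the same side of Control-Veh (C) in both HFpEF-Veh (V) and HFpEF-TYA-018 (T). Each y axis starts at 0, and in Edn3 and Cilp all V and T libraries lie above all C libraries.

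Genes that stayed lower included an enzyme, a receptor and a G protein subunit. Abat, the transaminase that breaks down the transmitter GABA, was at 8.63, 11.4, 10.0 and 8.77 CPM in C1 to C4, 2.32, 3.62, 4.09 and 2.74 CPM in V1 to V4 and 3.29, 4.22, 4.60 and 5.58 CPM in T1 to T4 (log2 difference -1.13, SE 0.19, edgeR adjusted p 0.00827). All T libraries lay below all C libraries. Plxnb1, a receptor for semaphorins, was at 46.6, 56.5, 54.3 and 53.7 CPM in C1 to C4, 25.1, 18.8, 18.99 and 17.7 CPM in V1 to V4 and 29.3, 28.1, 24.8 and 18 CPM in T1 to T4 (log2 difference -1.07, SE 0.15, edgeR adjusted p 0.00307). Scgb1c1, a secretoglobin, differed by -1.67 (adjusted p 0.00515, 13.2% of words shared), and the G protein subunit gene Gnb3 by -1.06 (adjusted p 0.0465). Tgtp1, an interferon-inducible GTPase, differed by -1.18 (adjusted p 0.0128), but 84.4% of its 31-base words occur in other genes, so reads may be split with a near copy. Abat, Plxnb1, Scgb1c1 and Tgtp1 stayed called whichever of the 8 libraries was left out (edgeR adjusted p at most 0.0364). Single libraries, left out alone, ended the edgeR call of Gnb3 (any but C1, highest adjusted p 0.111).

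Among named genes beyond control on the high side that reached 5 CPM, Rp9, a nuclear protein linked to splicing and inherited retinal disease, had the largest difference. Rp9 (chromosome 9, 22411047 to 22469743) was at 9.29, 14.1, 11.3 and 11.4 CPM in C1 to C4, 8.25, 10.2, 8.75 and 9.01 CPM in V1 to V4 and 31.7, 31.6, 27.8 and 27.5 CPM in T1 to T4 (log2 difference 1.37, SE 0.11, edgeR adjusted p 0.000167). Rp9 was lower than control in HFpEF-Veh (-0.35, adjusted p 0.0493) and higher than control in HFpEF-TYA-018. Scn4b, a regulatory subunit of cardiac sodium channels, was at 27.4, 21.4, 24.7 and 20.3 CPM in C1 to C4, 33.5, 30.1, 39.4 and 31.2 CPM in V1 to V4 and 48.5, 47.7, 55.2 and 44.3 CPM in T1 to T4 (log2 difference 1.06, SE 0.11, edgeR adjusted p 0.000813). Msra, which repairs oxidised methionine in proteins, was at 9.58, 8.59, 9.00 and 9.78 CPM in C1 to C4, 13.2, 12.5, 15.6 and 14.4 CPM in V1 to V4 and 17.1, 17.8, 15.95 and 17.2 CPM in T1 to T4 (log2 difference 0.88, SE 0.08, edgeR adjusted p 0.000221). Bambi, a decoy receptor that dampens TGF-beta signalling, was at 7.76, 8.29, 7.41 and 8.10 CPM in C1 to C4, 9.82, 9.37, 9.65 and 9.76 CPM in V1 to V4 and 13.7, 12.5, 14.8 and 13.5 CPM in T1 to T4 (log2 difference 0.79, SE 0.07, edgeR adjusted p 0.000167). Scn4b, Msra and Bambi were higher in steps, with HFpEF-Veh above control and HFpEF-TYA-018 above HFpEF-Veh by call. S100a6, a calcium-binding protein, was higher by 0.90 (adjusted p 0.0105), with C2 above the other controls. In all 8 fits that each lacked 1 library, Rp9, Scn4b, Msra, Bambi and S100a6 remained called (edgeR adjusted p at most 0.0380).

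On the low side, Rps26, a protein of the small ribosomal subunit, had the largest difference among named genes of at least 5 CPM. Rps26 (chromosome 10, 128624534 to 128626747) was at 99.8, 162, 132 and 133 CPM in C1 to C4, 123, 133, 96.2 and 33.5 CPM in V1 to V4 and 7.85, 6.88, 17.6 and 9.80 CPM in T1 to T4 (log2 difference -3.65, SE 0.42, edgeR adjusted p 0.00120). All T libraries lay far below all C libraries, V4 was the lowest of the V libraries, and 20.2% of its 31-base words occur in other genes, so that the counting could have split it. The other 77 tested cytosolic ribosomal protein genes were not called, and the list's median was -0.05. Ppl, the junction protein periplakin, was lower in steps, at 12.2, 11.6, 12.7 and 12.2 CPM in C1 to C4, 10.97, 10.4, 8.01 and 9.91 CPM in V1 to V4 and 7.48, 7.27, 6.82 and 7.37 CPM in T1 to T4 (log2 difference -0.75, SE 0.09, edgeR adjusted p 0.00153). Nt5e, the CD73 enzyme that makes adenosine outside cells, was at 15.95, 13.2, 12.7 and 12.2 CPM in C1 to C4, 11, 12.5, 15.2 and 11.7 CPM in V1 to V4 and 8.42, 8.02, 9.13 and 5.55 CPM in T1 to T4 (log2 difference -0.80, SE 0.15, edgeR adjusted p 0.0137). HFpEF-Veh did not differ from control in Nt5e by call (-0.10, adjusted p 0.674). Net1, an activator of RhoA, Mbd1, which binds methylated DNA, and Cdh19, a cadherin known from glia of nerves, differed by -0.88, -0.84 and -0.75 (adjusted p 0.00260, 0.0310 and 0.0123). Net1 shares 13.4% of its 31-base words with other genes. No single library of the 8 ended the calls of Rps26, Ppl, Nt5e, Net1 and Cdh19 (edgeR adjusted p at most 0.0402 without it). Calls that edgeR no longer made without 1 library were those of Mbd1 (C3, C4, T1, T2 or T3, highest adjusted p 0.0853).

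**Figure D4:**
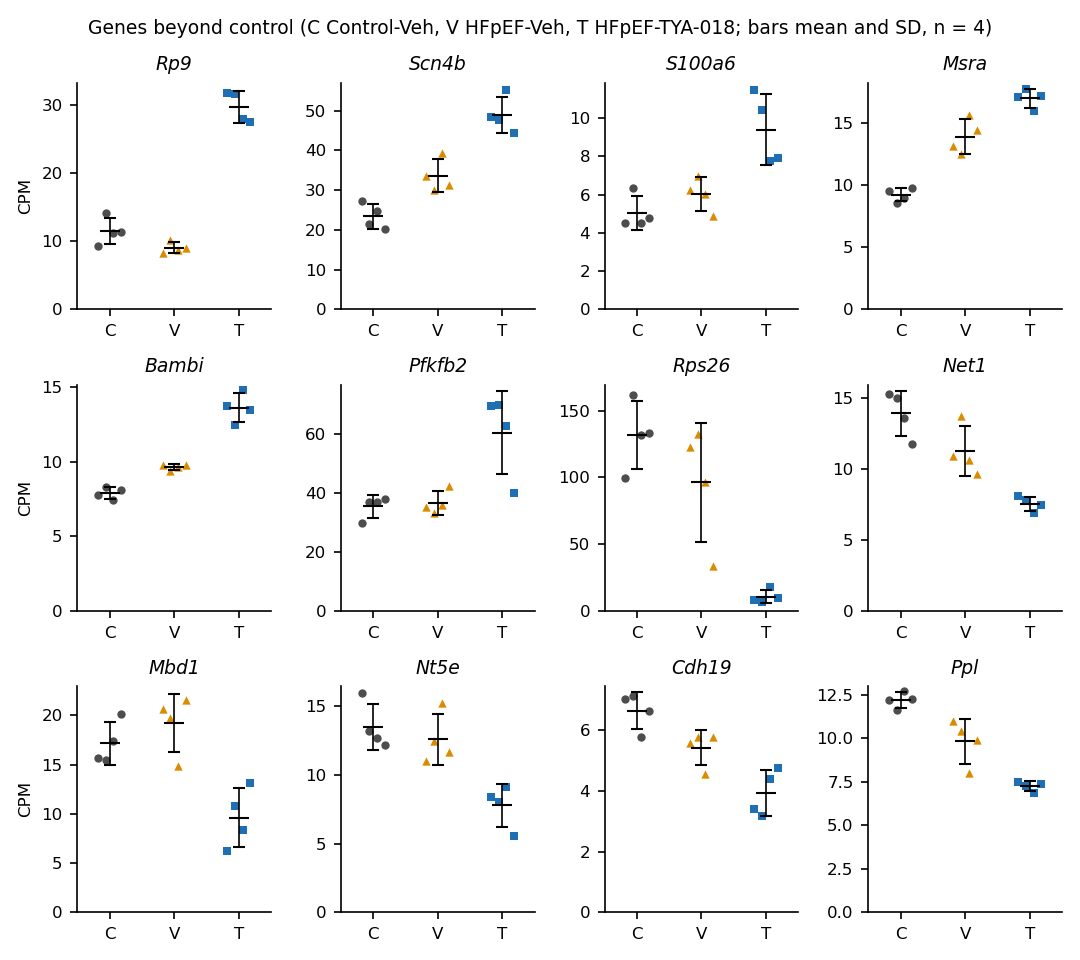
CPM after TMM scaling in each library (points) with the mean and SD of each group (bars, n = 4), for 12 genes called on the same side of both Control-Veh (C) and HFpEF-Veh (V) in HFpEF-TYA-018 (T). Each y axis starts at 0, and every T library lies above every C and V library in Rp9 and below them in Ppl.

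In 19 genes the inhibitor group and the untreated model were called on opposite sides of control, a set chosen after the values were seen. There were 5 higher in HFpEF-TYA-018 and lower in HFpEF-Veh, namely Rp9, Echs1, Coq9, Zfp771 and Abcb8, and 14 the other way. Coq9, needed to make coenzyme Q, was at 202, 209.5, 229 and 205 CPM in C1 to C4, 178, 174, 198 and 182 CPM in V1 to V4 and 275, 257, 244 and 240.0 CPM in T1 to T4 (log2 difference 0.27, SE 0.07, edgeR adjusted p 0.0401). Among the 14, Slc43a3, a nucleobase carrier, was at 135, 129.8, 109.9 and 122 CPM in C1 to C4, 154, 158, 144 and 154 CPM in V1 to V4 and 83.6, 88.1, 89.3 and 99.9 CPM in T1 to T4 (log2 difference -0.46, SE 0.07, edgeR adjusted p 0.00665). T libraries were lowest and V libraries highest in that gene. The retinoic acid receptor gene Rarg, the anti-apoptotic Bcl2l1 and the phagocytic receptor Mertk had log2 differences of -0.56, -0.30 and -0.31 in HFpEF-TYA-018 and 0.33, 0.32 and 0.35 in HFpEF-Veh (adjusted p 0.00733, 0.0300 and 0.0356 in HFpEF-TYA-018). Leaving out any 1 of the 8 libraries left Slc43a3 and Rarg called (edgeR adjusted p at most 0.0277). Without 1 library, edgeR did not call Coq9 (any but C3 and T4, highest adjusted p 0.106), Bcl2l1 (any but C4, highest adjusted p 0.0750) and Mertk (any but C1, highest adjusted p 0.103).

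Some cell cycle genes stayed above control. Of 44 tested, 10 were higher and 1, the kinetochore gene Cenpf, lower in HFpEF-TYA-018 (25% called against 5.86% of all genes, of which 3.12% were higher), with a median of 0.42 against 1.26 in HFpEF-Veh, where 28 were higher (10.9% of all genes were). All 11 stayed different, and against HFpEF-Veh 18 members were called lower (10.4% of all genes were). Cdk1, the kinase that starts mitosis, was at 0.637, 0.388, 0.536 and 0.306 CPM in C1 to C4, 1.72, 4.13, 4.69 and 3.14 CPM in V1 to V4 and 1.09, 1.80, 2.52 and 1.67 CPM in T1 to T4 (log2 difference 1.92, SE 0.35, edgeR adjusted p 0.0119). Cdca8 and Aurkb of the chromosomal passenger complex differed by 1.43 and 1.64, the cyclin gene Ccnb1 by 2.64 and the ribonucleotide reductase gene Rrm2 by 1.81 (adjusted p 0.0165, 0.0189, 0.0287 and 0.0289). These genes are lowly expressed here, and Ccnb1 shares 27.8% of its 31-base words. Cenpf went the other way, at 14.7, 11.5, 17.5 and 18.4 CPM in C1 to C4, 6.53, 6.44, 10.1 and 7.48 CPM in V1 to V4 and 8.26, 7.02, 5.61 and 5.18 CPM in T1 to T4 (log2 difference -1.25, SE 0.19, edgeR adjusted p 0.00515). Markers of red cells summed to 1563 to 2440.2 CPM among controls, 2583 to 3458 CPM in HFpEF-TYA-018 and 4264 to 13492 CPM in HFpEF-Veh, in the same order of groups, and their part in the cell cycle values was not tested. All 8 red cell markers had positive differences, and 0 were called by edgeR (1 at an unadjusted p under 0.05). The count of cell cycle genes called higher was 6, 4, 4 and 3 without C1 to C4 in turn and 9, 1, 3 and 3 without T1 to T4. It was 1 with effective lengths as offset, and 0 by limma on log2(TPM + 1) or after the study's filter. The calls of Cdk1 and Cenpf did not rest on any 1 of the 8 libraries (edgeR adjusted p at most 0.0398 without it). Leaving out 1 library ended the edgeR call of Cdca8 (T2, adjusted p 0.0510), Aurkb (T2, adjusted p 0.0557), Ccnb1 (C2, C4, T2, T3 or T4, highest adjusted p 0.0820) and Rrm2 (any but C1 and T1, highest adjusted p 0.0698).

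Listed redox genes were called in one direction. Msra, given above, is not in that list. Of 36 tested antioxidant and redox genes 8 were higher and 0 lower (median 0.09, 22.2% called against 5.86% of all genes), 5 of them staying different and 3 beyond control. Srxn1, which repairs overoxidised peroxiredoxins, was at 20.4, 20.2, 18.99 and 19.8 CPM in C1 to C4, 23.7, 25, 26.8 and 28.7 CPM in V1 to V4 and 27.5, 29.4, 29.1 and 30.5 CPM in T1 to T4 (log2 difference 0.55, SE 0.06, edgeR adjusted p 0.00127). Prdx3, the mitochondrial peroxiredoxin, was at 103, 101, 101 and 102 CPM in C1 to C4, 93.9, 96.2, 104 and 96.4 CPM in V1 to V4 and 139, 137, 128 and 129 CPM in T1 to T4 (log2 difference 0.39, SE 0.05, edgeR adjusted p 0.00260), and only the inhibitor group was above control by call. Sod3, the extracellular superoxide dismutase, stayed higher (0.45, adjusted p 0.00552), as did thioredoxin, Txn1 (0.33, adjusted p 0.0128), and Prdx6 was beyond control (0.30, adjusted p 0.0142). The number called higher was 6, 8, 6 and 7 without C1 to C4 in turn and 6, 6, 6 and 7 without T1 to T4. With the 8 libraries of the comparison left out 1 at a time, Srxn1, Prdx3, Sod3, Txn1 and Prdx6 kept their calls in every fit (edgeR adjusted p at most 0.0477).

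Of 52 tested proteasome and autophagy genes 7 were higher and 1 lower (15.4% called against 5.86% of all genes, of which 3.12% were higher), with a median of 0.12 and 41 positive differences. Against HFpEF-Veh 22 were called higher (8.93% of all genes were). Ctsd, the lysosomal protease cathepsin D, differed by 0.39 (adjusted p 0.00439, 33.2% of words shared) and Lamp1, of the lysosomal membrane, by 0.28 (adjusted p 0.0177). Proteasome subunits called higher were Psma2 of the core and Psmd1, Psmd2 and Psmd8 of the cap, by 0.32, 0.25, 0.30 and 0.30 (adjusted p 0.0265, 0.0188, 0.0312 and 0.0156). Psmd2 shares 31.6% of its words. The count called higher was 6, 8, 4 and 2 without C1 to C4 in turn and 4, 2, 4 and 5 without T1 to T4, and 1 with effective lengths as offset. Of 38 heat shock and chaperone genes 4 were higher and 1 lower (13.2% called, median 0.16). Serpinh1 is given above. The mitochondrial chaperonin Hspd1 and the cytosolic chaperonin subunit Cct3 differed by 0.39 and 0.26, Hspa4 by 0.25 and Hspa12a by -0.30 (adjusted p 0.0320, 0.0424, 0.0128 and 0.0361). Hspd1 shares 53.1% of its words with other genes. Ctsd, Psmd8 and Hspa4 stayed called whichever of the 8 libraries was left out (edgeR adjusted p at most 0.0487). With effective lengths as offset Ctsd was still called (edgeR adjusted p 0.00848), but Psmd8 and Hspa4 were not (edgeR adjusted p 0.371 and 0.526). The edgeR call failed without 1 library for Lamp1 (C4 or T2, highest adjusted p 0.0580), Psma2 (C3, C4, T1, T2 or T3, highest adjusted p 0.0725), Psmd1 (C4 or T2, highest adjusted p 0.0565) and Psmd2 (any but C1, highest adjusted p 0.0849). By edgeR, the call was lost with 1 library left out for Hspd1 (any but C3 and T4, highest adjusted p 0.0819), Cct3 (any but T4, highest adjusted p 0.116) and Hspa12a (any but C1, highest adjusted p 0.102).

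Of 33 genes of the unfolded protein and integrated stress response, 3 were higher and 0 lower (9.09% called against 5.86% of all genes, median 0.01), and all 3 stayed different. Atf6, a sensor of protein folding in the endoplasmic reticulum, was at 52.6, 43.3, 48.6 and 45.9 CPM in C1 to C4, 61.6, 60.3, 70.2 and 81.8 CPM in V1 to V4 and 71, 73, 73.9 and 78.9 CPM in T1 to T4 (log2 difference 0.64, SE 0.09, edgeR adjusted p 0.00439). Mthfd2 of mitochondrial folate metabolism was at 1.10, 1.41, 1.53 and 1.53 CPM in C1 to C4, 5.42, 3.00, 4.91 and 3.40 CPM in V1 to V4 and 3.11, 3.20, 3.81 and 2.63 CPM in T1 to T4 (log2 difference 1.20, SE 0.20, edgeR adjusted p 0.00827). C and T libraries were apart in both. Asns, asparagine synthetase, a target of the same response, differed by 0.75 (adjusted p 0.0493). Among 20 cardiac stress genes 3 stayed higher and 0 were lower (15% called, median 0.22), with the stress hormone Gdf15 at 1.69, Uchl1, a deubiquitinase, at 0.57 and Rcan1, an inhibitor and target of calcineurin, at 0.29 (adjusted p 0.0303, 0.0338 and 0.0487). Nppb, the natriuretic peptide gene, was at 22.7, 36.6, 32.6 and 22.4 CPM in C1 to C4, 97.8, 45.5, 94.1 and 66.7 CPM in V1 to V4 and 12.1, 28.3, 24.5 and 28.6 CPM in T1 to T4 and was not called against control (-0.29, adjusted p 0.608). In all 8 fits that each lacked 1 library, Atf6 and Mthfd2 remained called (edgeR adjusted p at most 0.0261). Single libraries, left out alone, ended the edgeR call of Asns (any but C2, highest adjusted p 0.117), Gdf15 (C1, C3, C4, T3 or T4, highest adjusted p 0.0849), Uchl1 (any but C2, highest adjusted p 0.0847) and Rcan1 (any but C1, highest adjusted p 0.130).

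Calls among matrix genes depended on single libraries. Of 35 tested collagen chains 2 were higher and 1 lower (8.57% called against 5.86% of all genes, median 0.10). In HFpEF-Veh the median was 0.54, with 11 higher and 2 lower (10.9% and 10.3% of all genes were). All 3 chains called in HFpEF-TYA-018 stayed different. The number of chains called higher was 9, 0, 0 and 0 without C1 to C4 in turn and 0, 0, 0 and 0 without T1 to T4. Col1a1, the main fibrillar chain, was at 59.9, 42.95, 48.7 and 46.8 CPM in C1 to C4, 90.5, 116, 85.1 and 102 CPM in V1 to V4 and 60.6, 61.7, 78.2 and 77.2 CPM in T1 to T4 (log2 difference 0.48, SE 0.13, edgeR adjusted p 0.0476). Col4a2 and Col4a5 of basement membranes differed in opposite directions (0.29 and -0.55, adjusted p 0.0468 and 0.00975). Col3a1 was not called (0.44, adjusted p 0.146). Of 48 other matrix, crosslinking and matricellular genes 5 were higher and 1 lower (12.5% called, median 0.15, 0.57 in HFpEF-Veh), and the number called higher was 9, 2, 2 and 2 without C1 to C4 in turn and 2, 2, 2 and 2 without T1 to T4. Besides Cilp, these were periostin, Postn (0.64, adjusted p 0.0252), biglycan, Bgn (0.38, adjusted p 0.0454), and the collagen hydroxylases P4ha1 (0.42, adjusted p 0.00448) and Plod1 (0.17, adjusted p 0.0498). Timp4, a protease inhibitor of the heart, was lower and beyond control (-0.42, adjusted p 0.0189). Fibroblast markers had 1 of 8 called, Col1a1, and summed to 648 to 1193 CPM in Control-Veh and 772 to 1049 CPM in HFpEF-TYA-018. In the list of TGF-beta signalling 1 of 24 was higher, Gdf15, and 1 lower, Bmp4 (-0.49, adjusted p 0.0102), which is 8.33% called, with a median of -0.01. Bambi, given above, is not in that list. No single library of the 8 ended the calls of Col4a5, P4ha1 and Bmp4 (edgeR adjusted p at most 0.0369 without it). Calls that edgeR no longer made without 1 library were those of Col1a1 (any but C1, highest adjusted p 0.119), Col4a2 (any but C1, highest adjusted p 0.118), Postn (any but C1, highest adjusted p 0.0748) and Bgn (any but C1, highest adjusted p 0.122). Without 1 library, edgeR did not call Plod1 (any of the 8, highest adjusted p 0.137) and Timp4 (T2, adjusted p 0.0577).

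Excitation and contraction genes were called in both directions. Of 31 tested genes of calcium handling and ion channels 4 were higher and 2 lower (19.4% called against 5.86% of all genes, median 0.05). Besides Scn4b, Casq2, the calcium store of the sarcoplasmic reticulum, was at 328, 307, 373 and 330.0 CPM in C1 to C4, 383, 417, 425 and 436 CPM in V1 to V4 and 469, 459.7, 446 and 447 CPM in T1 to T4 (log2 difference 0.45, SE 0.07, edgeR adjusted p 0.00470). Its partner Trdn, triadin, was at 44.5, 47.7, 47.1 and 53.02 CPM in C1 to C4, 38.3, 36.5, 34.7 and 35.6 CPM in V1 to V4 and 40.03, 36.04, 36.1 and 38.3 CPM in T1 to T4 (log2 difference -0.35, SE 0.06, edgeR adjusted p 0.00932). These partners, which lie in the same complex, stayed different on opposite sides of control. Jph2, which holds the reticulum to the plasma membrane, and Hcn4, the pacemaker channel, were higher (0.45 and 0.59, adjusted p 0.0133 and 0.0190), and the kinase gene Camk2d was lower (-0.27, adjusted p 0.0490), with T1 under the other T libraries. Of 24 sarcomere and Z-disc genes, Tnnt2, cardiac troponin T, stayed lower (-0.33, adjusted p 0.0234) and Actc1, cardiac actin, stayed higher (0.38, adjusted p 0.0486), with 8.33% called and a list median of -0.03 and -0.29 in HFpEF-Veh. The number of sarcomere genes called lower was 5, 1, 1 and 0 without C1 to C4 in turn and 1, 0, 0 and 0 without T1 to T4, and 7 by DESeq2. Leaving out any 1 of the 8 libraries left Casq2, Trdn and Jph2 called (edgeR adjusted p at most 0.0448). Leaving out 1 library ended the edgeR call of Hcn4 (T1 or T2, highest adjusted p 0.0599), Camk2d (any of the 8, highest adjusted p 0.113), Tnnt2 (C4, T2, T3 or T4, highest adjusted p 0.0725) and Actc1 (any but C3, highest adjusted p 0.119).

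In the endothelin system, Edn3 and the endothelin receptor gene Ednra were the 2 of 7 called (28.6% against 5.86% of all genes). Both stayed higher (Ednra 0.39, adjusted p 0.0454, list median 0.17). Of 28 genes of the nitric oxide, cGMP and natriuretic peptide pathway 0 were higher and 2 lower (7.14% called, median -0.07). Pde1c, a phosphodiesterase that degrades cyclic nucleotides, was at 21.4, 21.4, 21.9 and 24.2 CPM in C1 to C4, 9.32, 12.6, 13.1 and 11.5 CPM in V1 to V4 and 13.1, 14.3, 12.7 and 12 CPM in T1 to T4 (log2 difference -0.77, SE 0.10, edgeR adjusted p 0.00227). Corin, the protease that activates natriuretic peptides, differed by -0.40 (adjusted p 0.0289). Of 19 renin-angiotensin and adrenergic genes 2 were higher and 1 lower (15.8% called, median -0.01). Agt, angiotensinogen, stayed higher (0.78, adjusted p 0.0235), as did the receptor kinase Grk5 (0.29, adjusted p 0.0102). The calls of Pde1c and Grk5 did not rest on any 1 of the 8 libraries (edgeR adjusted p at most 0.0383 without it). The edgeR call failed without 1 library for Ednra (any but C1, highest adjusted p 0.109), Corin (C3, C4, T1 or T2, highest adjusted p 0.0820) and Agt (C2, C4, T1, T2 or T4, highest adjusted p 0.0640).

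Of 41 tested splicing factors, 5 were lower and 0 higher (12.2% called lower against 2.74% of all genes), with a median of -0.14 and 33 negative differences. Srsf11 was at 70.5, 73.02, 69.6 and 76 CPM in C1 to C4, 61.02, 52.7, 51.3 and 55.1 CPM in V1 to V4 and 46.5, 53.9, 52.1 and 42.6 CPM in T1 to T4 (log2 difference -0.57, SE 0.08, edgeR adjusted p 0.00354). The cold-inducible RNA-binding genes Rbm3 and Cirbp differed by -0.62 and -0.49 (adjusted p 0.00439 and 0.0235), Luc7l2 by -0.51 and the muscle splicing regulator Mbnl1 by -0.36 (adjusted p 0.0164 and 0.0431). Rbm3 shares 11.8% and Luc7l2 24.5% of its words with other genes. The number called lower was 6, 3, 4 and 2 without C1 to C4 in turn and 5, 5, 3 and 4 without T1 to T4. With the 8 libraries of the comparison left out 1 at a time, Srsf11 and Rbm3 kept their calls in every fit (edgeR adjusted p at most 0.0180). By edgeR, the call was lost with 1 library left out for Cirbp (C2, C4, T3 or T4, highest adjusted p 0.0628), Luc7l2 (C4, adjusted p 0.0517) and Mbnl1 (any but T4, highest adjusted p 0.0944).

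In insulin and IGF1 signalling 1 of 27 genes was higher, the adaptor Grb14 (0.32, adjusted p 0.0148), and 2 lower, Igf1r (-0.40, adjusted p 0.0288) and Igfbp3 (-0.50, adjusted p 0.0232), which is 11.1% called against 5.86% of all genes, with a median of -0.01. Of 31 cholesterol genes, Insig1, which retains the sterol sensor, was the 1 called (0.40, adjusted p 0.0261, list median -0.02). Polyamine and iron genes had 3 of 27 higher and 0 lower (11.1% called, median 0.04). Tfrc, the transferrin receptor, was at 9.93, 9.84, 11.1 and 9.76 CPM in C1 to C4, 24.4, 31.4, 45.8 and 30.97 CPM in V1 to V4 and 19.5, 23.2, 18.6 and 14.7 CPM in T1 to T4 (log2 difference 0.91, SE 0.17, edgeR adjusted p 0.0146). It lay between control and HFpEF-Veh, the order of the red cell marker sums given with the cell cycle genes, and with effective lengths as offset it was not called (adjusted p 0.747). Odc1 and Oaz2 of polyamine synthesis and its restraint differed by 0.35 and 0.21 (adjusted p 0.0265 and 0.0300). Odc1 shares 31.3% and Oaz2 12.1% of its words with other genes. In the list of histone deacetylases and tubulins 1 of 32 genes was called, the tubulin gene Tubb2a (0.26, adjusted p 0.0287), with 56.4% of words shared and a list median of 0.04. Grb14 and Tfrc stayed called whichever of the 8 libraries was left out (edgeR adjusted p at most 0.0497). With effective lengths as offset, however, Grb14 was not called either (log2 difference 0.02, edgeR adjusted p 0.952). Single libraries, left out alone, ended the edgeR call of Igf1r (C3, T1, T2 or T3, highest adjusted p 0.0767), Igfbp3 (C2, T1, T2 or T4, highest adjusted p 0.0622), Insig1 (C3, C4, T2, T3 or T4, highest adjusted p 0.0671) and Odc1 (C2, T1, T2 or T3, highest adjusted p 0.0693). Calls that edgeR no longer made without 1 library were those of Oaz2 (any but C1 and C2, highest adjusted p 0.0826) and Tubb2a (C2, C4, T1, T2 or T3, highest adjusted p 0.0837).

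Lists that follow time of day or state were called at 5.00% (clock), 4.00% (immediate early) and 9.38% (glucocorticoid and fasting), against 5.86% of all genes. Of 20 clock genes 1 was lower, Nr1d2 (-0.41, adjusted p 0.0153), with a median of -0.11, and of 25 immediate early genes 1 was higher, Ier3 (0.66, adjusted p 0.0160), with a median of -0.01. Of 32 glucocorticoid and fasting genes, Trim63, a muscle ubiquitin ligase, was higher (0.42, adjusted p 0.0454) and Sult1a1 (-0.49, adjusted p 0.0312) and Pdk4 were lower, with a median of -0.0031. Immune lists were called at 2.5%, 5.00% and 2.44% in the order given next. There was 1 lower call among each of 40 interferon-stimulated genes (Irgm1, -0.30, adjusted p 0.0346, median -0.03), 20 genes of antigen presentation (H2-Q4, -0.46, adjusted p 0.0495, median -0.07) and 41 chemokines, cytokines and receptors (the eosinophil attractant Ccl11, -1.33, adjusted p 0.0210, median -0.05). H2-Q4 shares 53.0% of its 31-base words with other genes. Tgtp1, given above, is not in the list of interferon-stimulated genes. In HFpEF-Veh the medians of these immune lists were 0.28, 0.07 and 0.21. In all 8 fits that each lacked 1 library, Nr1d2 and Ier3 remained called (edgeR adjusted p at most 0.0478). Without 1 library, edgeR did not call Trim63 (any of the 8, highest adjusted p 0.113), Sult1a1 (C2, C4, T1, T2 or T3, highest adjusted p 0.0848), Irgm1 (any but C3, highest adjusted p 0.0784) and H2-Q4 (any but C3, highest adjusted p 0.112). Leaving out 1 library ended the edgeR call of Ccl11 (C4, T2 or T3, highest adjusted p 0.0625).

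Markers of the cell types that a piece of ventricle can hold were mostly not called. Among 8 cardiomyocyte markers Tnnt2 and Actc1 were called, as above, and the list's median was 0.05. None of the other markers except Col1a1 was called by edgeR, which left 0 of 8 atrial, 10 endothelial, 10 smooth muscle and pericyte, 10 macrophage, 9 lymphocyte and neutrophil, 3 fat, 8 red cell, 6 Schwann cell and neuron, 2 mesothelial, 10 liver plasma protein and 4 skeletal muscle markers tested. At an unadjusted p under 0.05 there were 4 cardiomyocyte, 4 macrophage, 3 lymphocyte and neutrophil, 2 fibroblast and 2 liver plasma protein markers. There were 0 of the smooth muscle and fat markers and 1 in each other list. Of all 14333 genes, 3219 were under that threshold. Medians of these lists ran from -0.86 (liver plasma protein) and -0.67 (lymphocyte and neutrophil) to 0.53 (red cell) and 0.95 (mesothelial). The others ran from -0.16 (Schwann cell and neuron) to 0.15 (fibroblast). Summed macrophage markers lay at 154 to 209 CPM in Control-Veh and 181 to 207 CPM in HFpEF-TYA-018, and lymphocyte and neutrophil markers at 4.60 to 11.02 CPM in Control-Veh and 3.45 to 5.58 CPM in HFpEF-TYA-018. Endothelial markers summed to 1987 to 2466 CPM in Control-Veh and 1815 to 2064 CPM in HFpEF-TYA-018, and smooth muscle and pericyte markers to 2261 to 2464 CPM in Control-Veh and 2227 to 2628 CPM in HFpEF-TYA-018. The ranges of the groups overlapped for all of these. Sums of liver plasma protein transcripts ran from 48.6 to 117 CPM in Control-Veh and 19.3 to 105 CPM in HFpEF-TYA-018, fat markers from 1.04 to 6.52 CPM in Control-Veh and 0.643 to 3.75 CPM in HFpEF-TYA-018 and mesothelial markers from 6.33 to 8.69 CPM in Control-Veh and 8.41 to 11.9 CPM in HFpEF-TYA-018. T3 held the highest liver plasma protein sum of the T libraries. Atrial markers lay at 393 to 432 CPM in Control-Veh and 375 to 449 CPM in HFpEF-TYA-018, skeletal muscle markers at 1304 to 1778 CPM in Control-Veh and 1369 to 1765 CPM in HFpEF-TYA-018 and Schwann cell and neuron markers at 9.64 to 16.5 CPM in Control-Veh and 9.47 to 14.3 CPM in HFpEF-TYA-018, where 1 marker was at 0 in all 8 libraries. The part of any of these in the gene differences was not tested.

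**Figure D5:**
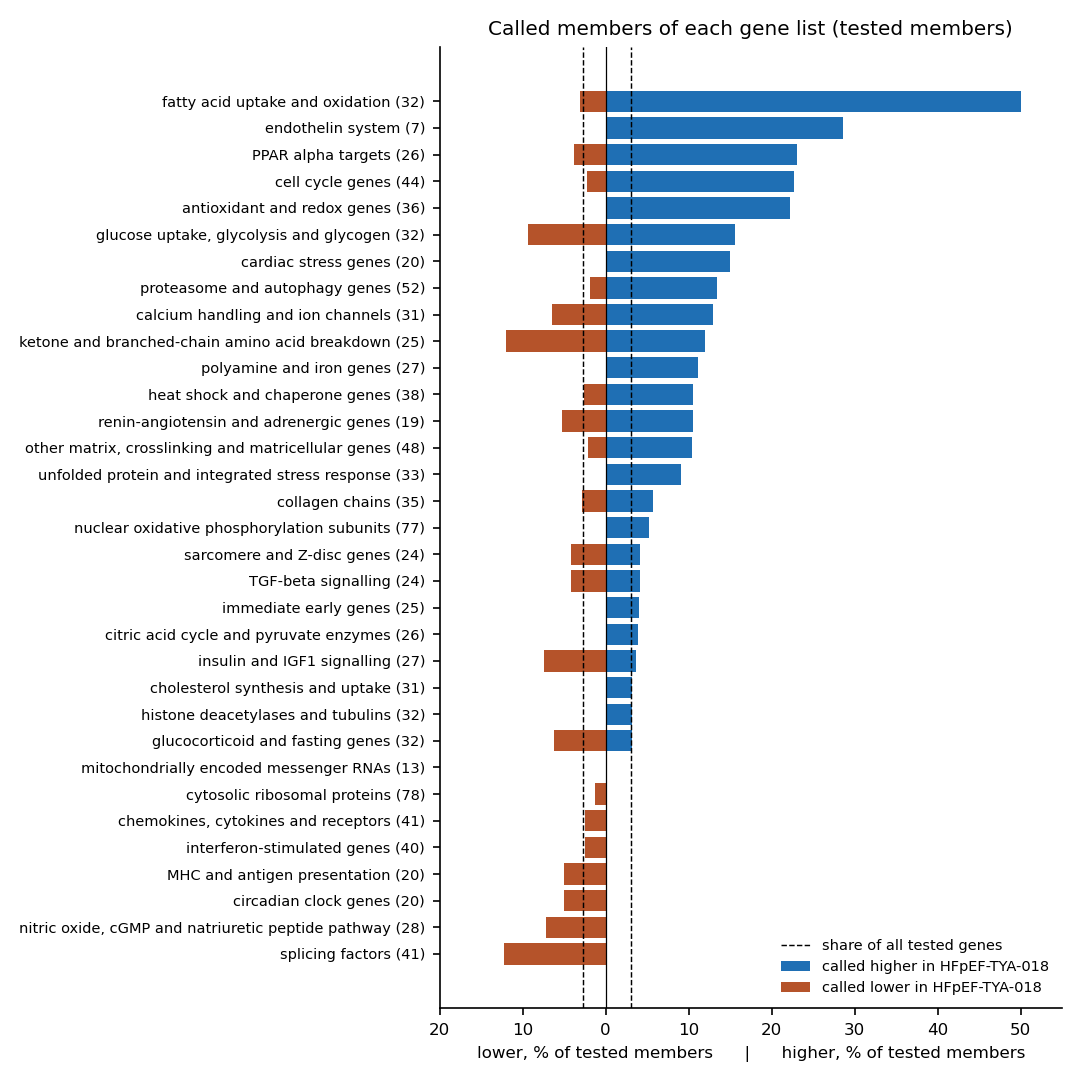
Bars give the percent of tested members of each gene list called higher (to the right) or lower (to the left) in HFpEF-TYA-018 against Control-Veh, with the number tested in brackets and dashed lines at the share of all tested genes, 3.12% and 2.74%. Fatty acid uptake and oxidation has the longest bar, with 16 of 32 called higher.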

How the data were processed

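Poly(A) RNA of 12 left ventricles was sequenced with a stranded kit, 1 library per mouse. The labels and the study give different read layouts, lengths and depths, which the files cannot settle. The labels' build field names a human build, whereas the study names mouse GENCODE transcripts on GRCm38, which the mouse gene symbols in the tables fit. The authors trimmed reads with fastp, quantified transcripts with salmon 1.6.0 and summed them to genes with tximport. They deposited 3 tables of 29564 genes. The first deposited table holds estimated counts (not normalised, fractional where a read fits several transcripts), the second TPM, and the third another value, effective gene lengths in bases. No other column of sample values was present (0 left out), and 19 rows named by numbers, as spreadsheets make of gene names, were kept.

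Rounded estimated counts entered edgeR 4.0.16 (R 4.3.3). filterByExpr by group kept 14333 genes holding 99.98% of counts, libraries were scaled by TMM, and 1 quasi-likelihood model was fitted to all 12 libraries (9 residual degrees of freedom, biological coefficient of variation 0.232). Tests were two-sided. Called means a p under 0.05 after Benjamini-Hochberg adjustment over all genes tested. Log2 differences come from this fit with its SE, and values per library are CPM after TMM. Every adjusted p is edgeR's unless limma 3.58.1 or DESeq2 1.42.0 is named. Library measures were compared by exact permutation (smallest p 0.0286). Alternatives were DESeq2, other scalings and filters, effective lengths as offset, limma on log2(TPM + 1) and log2(TPM + 0.1), the study's filter and leaving out each library. Each mouse is 1 sample, and leaving out HFpEF-Veh libraries was added after the data were seen.

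The members, gene lists and rule for named genes were chosen with earlier results of these data known. Named were the largest differences of called genes without overlap between libraries and a mean of at least 5 CPM in either group (8 each way over all, 6 each way among genes staying different and beyond control), up to 6 called members of each list in order of p (up to 2 uncalled where none was called), and Hdac6, Nppb, Col3a1, Edn3 and Serpinh1. Of 701 eligible genes 24 had clone, gene model or pseudogene symbols and were not named. A further 16 genes of fatty acid oxidation and of the set on opposite sides of control, and Cpt1a, Cpt1b and Cd36, were named after their values were seen. Coordinates are from GENCODE M21 (GRCm38), which matched 13704 tested genes by symbol and 496 by synonym, and stretches of 31 bases shared between genes were counted in its transcripts. Of 835 called genes with sequence, 169 shared at least 10% of them. A few genes are not reported here. Promoters are RefSeq windows on GRCm38.p6.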

Additional observations from a re-analysis of the deposited data

Results flagged for a closer look

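Among the 4 libraries of a group, the highest or lowest library stood apart from the other 3 by Dixon's criterion in 26 of 322 group values examined. Chance alone flags about 1 in 20 groups, and no explanation was tested.

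In Control-Veh, C1 stood apart in Acadvl (low, 520.2 CPM against 669 to 695), Cct3 (low, 51.7 CPM against 59.6 to 60.9), Pdk4 (high, 588 CPM against 434 to 448), Pfkfb2 (low, 29.7 CPM against 36.9 to 37.99) and Sod3 (low, 34.2 CPM against 36.9 to 37.01). C2 did so in Gdf15 (high, 0.953 CPM against 0.529 to 0.583), Lpl (high, 4624 CPM against 3988 to 4048) and S100a6 (high, 6.33 CPM against 4.50 to 4.79), and its median relative log2 effective length was the lowest of its group, at -0.0588. C3 was apart in Jph2 (high, 233 CPM against 211 to 213), Pfkfb1 (low, 22.4 CPM against 27.1 to 27.7) and Tfrc (high, 11.1 CPM against 9.76 to 9.93), and C4 in Mertk (high, 12.1 CPM against 10.5 to 10.7), Nr1d2 (high, 100.5 CPM against 88.3 to 89.5) and Trim63 (high, 74.6 CPM against 68.8 to 69.6).

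In HFpEF-TYA-018, T1 stood apart in Camk2d (low, 38.9 CPM against 47.9 to 48.9) and Rarg (low, 15.5 CPM against 19.4 to 19.9). T2 was apart in H2-Q4 (high, 38.9 CPM against 33.8 to 34.4), and T3 in Agt (low, 5.88 CPM against 8.41 to 8.77) and Pam (high, 218 CPM against 209 to 210.2). T4 differed from its group in Aqp1 (high, 515 CPM against 377 to 397), Atp6v0e (low, 7.26 CPM against 18 to 19.5), Igf1r (high, 14.5 CPM against 13.2 to 13.3), Lyve1 (high, 12.7 CPM against 8.62 to 9.18), Pfkp (low, 34.8 CPM against 40.1 to 40.9) and Sult1a1 (high, 61.4 CPM against 48.7 to 50.4). Aqp1, Lyve1 and Pam, markers of endothelial cells, macrophages and atrial muscle, were not called in HFpEF-TYA-018 against Control-Veh (edgeR adjusted p 0.0855, 0.0618 and 0.117).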

How the results depend on the processing

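The counts of 840 called genes (447 higher, 393 lower), 413 staying different and 273 beyond control moved by more than 1.5 times under several alternatives. DESeq2 gave 1514 called (777 higher, 737 lower), 707 staying different and 514 beyond control, with 11 genes left without an adjusted p, and called all 840. Effective lengths as offset gave 203 called (108 higher, 95 lower), 93 staying different and 68 beyond control. limma on log2(TPM + 1) gave 9 called (4 higher, 5 lower), 5 staying different and 4 beyond control, and on log2(TPM + 0.1) 11 called (7 higher, 4 lower), 6 staying different and 5 beyond control. On these scales the median of all genes moved to 0.08 and 0.17. After the study's filter limma gave 101 called (54 higher, 47 lower), 52 staying different and 24 beyond control. With only the 8 libraries compared, edgeR gave 514 calls (290 higher, 224 lower). Fewer samples enter that fit, and the cause of the other shifts was not tested. Leaving out each of the 8 libraries in turn gave 317 to 815 called (158 to 434 higher, 158 to 381 lower), 159 to 507 staying different and 101 to 237 beyond control, lowest without C4 or T2. Leaving out each HFpEF-Veh library, chosen after seeing the data, gave 662 to 792 called, 306 to 382 and 187 to 226. RLE size factors, leaving out mitochondrially encoded genes, no filter on low counts and a filter at 1 CPM kept all 5 counts within 1.5 times. Of 130 called named genes, 60 stayed called without any 1 of the 8 libraries, 40 with lengths as offset, 94 with 8 libraries, 31 after the study's filter and 3 on log2(TPM + 1). Over 2859 values of these genes under alternatives 1939 stayed called in the same direction, 916 lost the call and 4 changed direction, namely Bcl2l1 at 0.055 and 0.061 and Camk2d at 0.12 and 0.13 under limma on log2(TPM + 1) and log2(TPM + 0.1). List medians moved by more than the spread between libraries in 115 of 1010 comparisons. No paired analysis was possible because the groups had no animal numbers in common. With 4 mice per group, small differences in genes at a few CPM are the least certain.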
